A study of Homo sapiens with 2 samples.

Results

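The DLX and MSX homeobox genes were examined in DNase-seq hotspot lists of Saos-2 and U2OS, 2 established human cell lines derived from osteosarcoma. The members were the 8 genes DLX1 to DLX6, MSX1 and MSX2, of 19974 protein-coding genes annotated on chromosomes 1 to 22 and X. DNase I cuts DNA that is open in chromatin, and a hotspot is a stretch in which the authors called an excess of cuts at a false discovery rate of 0.05. Nuclei of both lines were digested for 3 min at 37 °C, no drug or genetic change is given in the labels for either line, and each line was represented by 1 library. No value therefore has a replicate error, and no difference was tested. All differences below compare these 2 libraries, and read depth, which is not known, and accessibility cannot be told apart.

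A locus was defined as the gene span plus 200 kb on both sides. DLX1-DLX2 on chromosome 2, DLX3-DLX4 on chromosome 17 and DLX5-DLX6 on chromosome 7 were each treated as a pair, so that a hotspot near both genes was counted once. With MSX1 on chromosome 4 and MSX2 on chromosome 5 this gave 5 loci. They held 61 of the 51556 Saos-2 hotspots and 94 of the 63388 U2OS hotspots. All positions are on hg38. DLX1 (gene 1745) spans 172085507 to 172089674, and DLX2 (gene 1746) spans 172099438 to 172102900. DLX4 (gene 1748) spans 49968572 to 49974959 and DLX3 (gene 1747) 49990005 to 49995224. DLX6 (gene 1750) spans 97005553 to 97011040 and DLX5 (gene 1749) 97020396 to 97024831. MSX1 (gene 4487) spans 4859665 to 4863936, and MSX2 (gene 4488) spans 174724582 to 174730896.

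DLX and MSX proteins are related transcription factors that bind short AT-rich DNA elements through a homeodomain. The DLX genes lie in convergent pairs, with their starts facing outwards and enhancers known in the DNA between them. Both families act in the branchial arches, limb buds, teeth and skull, and respond to bone morphogenetic proteins (BMPs). DLX5 promotes and MSX2 generally restrains osteoblast differentiation, and the balance between them is a textbook example of opposing homeodomain factors in bone.

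The promoter DNA shows what the hotspots at the starts covered. RefSeq start positions and promoter sequences (GRCh38.p14) were matched for 5 of the 8 members, and the 250 bases before the start are printed 5′ to 3′ on the gene's strand. They are the promoters covered in both lines (MSX1 and MSX2), those covered in Saos-2 alone (DLX6 and DLX1) and 1 covered in neither (DLX2). Capitals mark the bases inside a hotspot of both lines for MSX1 and MSX2, and inside the Saos-2 hotspot for DLX6 and DLX1.
MSX1: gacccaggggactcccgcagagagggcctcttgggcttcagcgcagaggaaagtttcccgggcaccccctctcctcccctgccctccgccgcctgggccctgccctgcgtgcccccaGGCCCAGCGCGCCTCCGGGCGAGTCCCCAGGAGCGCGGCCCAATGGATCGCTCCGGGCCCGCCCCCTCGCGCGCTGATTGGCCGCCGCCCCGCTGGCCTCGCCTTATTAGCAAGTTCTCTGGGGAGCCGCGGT
MSX2: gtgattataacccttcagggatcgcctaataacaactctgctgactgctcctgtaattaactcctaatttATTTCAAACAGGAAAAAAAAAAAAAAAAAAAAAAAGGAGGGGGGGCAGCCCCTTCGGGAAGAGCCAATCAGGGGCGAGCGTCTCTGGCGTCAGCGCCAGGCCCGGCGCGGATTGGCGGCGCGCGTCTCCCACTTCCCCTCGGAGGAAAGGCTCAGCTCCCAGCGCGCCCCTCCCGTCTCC
DLX6: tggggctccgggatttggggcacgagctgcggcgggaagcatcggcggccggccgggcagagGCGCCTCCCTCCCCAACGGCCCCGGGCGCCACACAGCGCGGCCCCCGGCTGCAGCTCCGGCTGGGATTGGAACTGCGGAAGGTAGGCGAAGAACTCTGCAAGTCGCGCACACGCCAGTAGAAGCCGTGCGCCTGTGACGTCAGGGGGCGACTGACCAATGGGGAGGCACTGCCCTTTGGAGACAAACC
DLX1: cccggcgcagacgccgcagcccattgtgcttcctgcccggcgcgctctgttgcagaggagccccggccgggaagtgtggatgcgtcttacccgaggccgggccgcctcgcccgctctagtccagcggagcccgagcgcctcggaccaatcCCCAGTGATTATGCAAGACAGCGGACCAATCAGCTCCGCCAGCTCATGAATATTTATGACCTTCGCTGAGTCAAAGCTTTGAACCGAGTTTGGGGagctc
DLX2: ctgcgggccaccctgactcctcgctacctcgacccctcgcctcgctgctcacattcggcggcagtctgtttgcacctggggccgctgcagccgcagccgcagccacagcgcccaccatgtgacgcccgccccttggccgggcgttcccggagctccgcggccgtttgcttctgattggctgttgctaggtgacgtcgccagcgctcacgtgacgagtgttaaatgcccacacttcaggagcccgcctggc
These stretches lie at chr4:4859415-4859664 on the plus strand for MSX1, chr5:174724332-174724581 on the plus strand for MSX2, chr7:97005303-97005552 on the plus strand for DLX6, chr2:172085257-172085506 on the plus strand for DLX1 and chr2:172102901-172103150 on the minus strand for DLX2. Of the 250 MSX1 bases, 241 lay in the Saos-2 hotspot and 133 in the U2OS hotspot. For MSX2 the numbers were 191 and 180. The Saos-2 hotspot covered 188 bases at DLX6 and 95 at DLX1, and U2OS covered none at either.

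The share of G and C ranged from 55.6% at MSX2 to 74% at MSX1 in the 5 stretches, beside a median of 58% over the 35116 promoters of the same length. These 35116 were not restricted to the 15813 coding genes with a known start, whereas the 5 members are coding genes. They held between 17 and 25 CpG dinucleotides, beside a median of 11. The CCAAT box, searched on both strands, was present in each of the 5 and in 32% of all promoters. The SP1-type GGGCGG was found in MSX1 and DLX2 and in 42.6% of all promoters. The homeodomain core TAATTA was found in MSX2, starting 197 bases before the start and outside both hotspots, and in 4.35% of all promoters. TAATTG was in none of the 5 and in 6.7% of all promoters. The AP-1 element TGANTCA was found in DLX1, inside the Saos-2 hotspot, and in 6.57% of all promoters. TATAAA and the RUNX core TGTGGT were in none of the 5, and in 10.7% and 11% of all promoters.

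MSX1 and MSX2 were the members with an accessible start in both lines. MSX2, mutated in forms of craniosynostosis, had a hotspot of 353 bp at its start in Saos-2 (174724391 to 174724743, authors' −log10 significance 12.26) and of 297 bp in U2OS (174724402 to 174724698, significance 10.06). The −log10 significance is the authors' own value per hotspot, with a lowest possible value of 1.30, and serves to rank hotspots within a list. These values were at or above 87.9% of the Saos-2 list and 77.6% of the U2OS list. MSX1, in which mutations cause missing teeth and orofacial clefts, had a start hotspot of 318 bp in Saos-2 (4859424 to 4859741, significance 6.35). Its U2OS counterpart was 224 bp wide (4859532 to 4859755, significance 4.83). The MSX1 and MSX2 start hotspots thus overlapped between the lines and extended from the promoter into the gene.

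The DLX genes differed between the lines at their ends. DLX6, the partner of DLX5 in limb and craniofacial development, had a start hotspot of 266 bp in Saos-2 (97005365 to 97005630, significance 5.99) and none in U2OS, whose nearest hotspot was 5531 bp from the gene. This hotspot also lies within the span of DLX6-AS1, the antisense transcript of the locus. DLX1, a regulator of forebrain interneurons, had a Saos-2 hotspot of 95 bp that ended 6 bp before the gene (significance 1.62). DLX4 had 2 Saos-2 hotspots just inside its lower-coordinate end, of 107 and 118 bp (significance 1.79 and 2.1). At the upper-coordinate end of DLX3, a gene of skin, hair, tooth and bone, Saos-2 had a hotspot of 93 bp (significance 1.77). U2OS had no hotspot within 1 kb of DLX1, DLX3 or DLX4. Its nearest to DLX3 lay 1734 bp away and had a significance of 4.94, so the class of DLX3 depends on the 1 kb limit. The Saos-2 hotspots at DLX1, DLX3 and DLX4 were close to the calling threshold, at or above between 4.47% and 16.8% of the Saos-2 list, whereas that at DLX6 was at or above 66.5%.

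DLX2, the partner of DLX1, had gene-end hotspots in U2OS alone, though the 250 bases before its start were covered in neither line. U2OS had a hotspot of 618 bp at the lower-coordinate end of DLX2, its 3′ end (172098852 to 172099469, significance 15.08), and a second of 197 bp at 989 bp beyond the start, inside the divergent transcript DLX2-DT (significance 3.22). Saos-2 had none within 1 kb, and its nearest hotspot lay 13937 bp away. The 618 bp hotspot was the widest and the most significant of the U2OS hotspots in this locus. DLX5 had no hotspot within 1 kb of either end in either line. Its nearest hotspots were 2448 bp away in Saos-2 and 2812 bp away in U2OS.

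**Figure D1:**
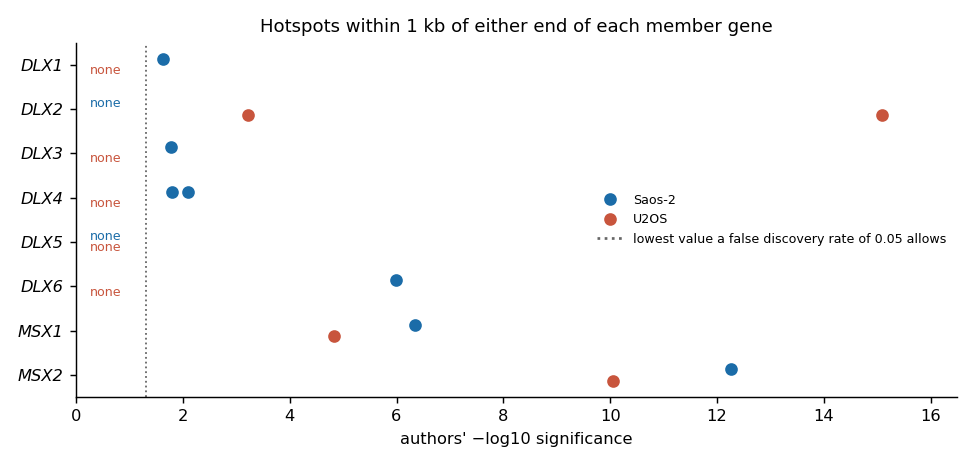
Each point is a hotspot within 1 kb of either end of a member gene, placed by the authors' −log10 significance (x axis, no unit), with Saos-2 in blue, U2OS in red and "none" where the list has no such hotspot. MSX1 and MSX2 have points in both lines, DLX1, DLX3, DLX4 and DLX6 in Saos-2 and DLX2 in U2OS.

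In total, 6 of 8 members had a gene-end hotspot in Saos-2 and 3 of 8 in U2OS, where 47.9% and 53.4% of all coding genes did. Both lines had one at 2 members, beside 42.9% of all coding genes. Saos-2 alone had one at 4 members, beside 5.09% of coding genes, and U2OS alone at 1, beside 10.5%. The remaining member, DLX5, was in the class of neither line, which held 41.5% of coding genes. Of the 4 members accessible in Saos-2 alone, DLX6 alone kept its hotspot in the top 50% of each list by significance. In that setting 3 members had a gene-end hotspot in Saos-2 and 3 in U2OS, and the share of coding genes was not computed. Within 2.5 kb of the gene ends the numbers were 7 in Saos-2, 4 in U2OS and 3 in both lines. DLX3 was then in both lines and DLX5 in Saos-2 alone. Within 500 bp the numbers were 6, 3 and 2. For these 2 distances the share of coding genes was not computed either. At the starts of the 5 members with a known start, 4 had a hotspot within 1 kb in Saos-2 and 3 in U2OS, beside 46.8% and 51.2% of 15813 coding genes.

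The DNA between the genes of a pair was then compared. Between DLX1 and DLX2, a gap of 9.76 kb, U2OS had 5 hotspots that covered 1354 bp of the gap, and Saos-2 had none. U2OS had 3 there with lists of equal length and 2 in the top 50% of its list. The hotspot at 172095452 to 172095802 (351 bp, significance 7.85) was the strongest of those that did not reach DLX2. Between DLX6 and DLX5, a gap of 9.36 kb, both lines were accessible at the same place. U2OS had 2 hotspots there, at 97016571 to 97016898 (significance 7.01) and at 97016904 to 97017430 (significance 6.87). Saos-2 had 4, at 97016626 to 97016920 (4.15), 97016929 to 97017174 (2.18), 97017223 to 97017754 (4.81) and 97017891 to 97017948 (1.36). The first 3 of these overlapped a U2OS hotspot; with hotspots less than 150 bp apart merged each line had 1, and in the top 50% of the lists each had 2. Between DLX4 and DLX3, a gap of 15.04 kb, U2OS had 1 hotspot (49988049 to 49988271, significance 4.94) and Saos-2 had none. Of these 3 gaps, that of DLX5-DLX6 was thus the one with hotspots in both lists. The contrast with DLX3-DLX4 rests on 1 U2OS hotspot. The share over other gaps of this size was not computed, so these counts have no background.

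**Figure D2:**
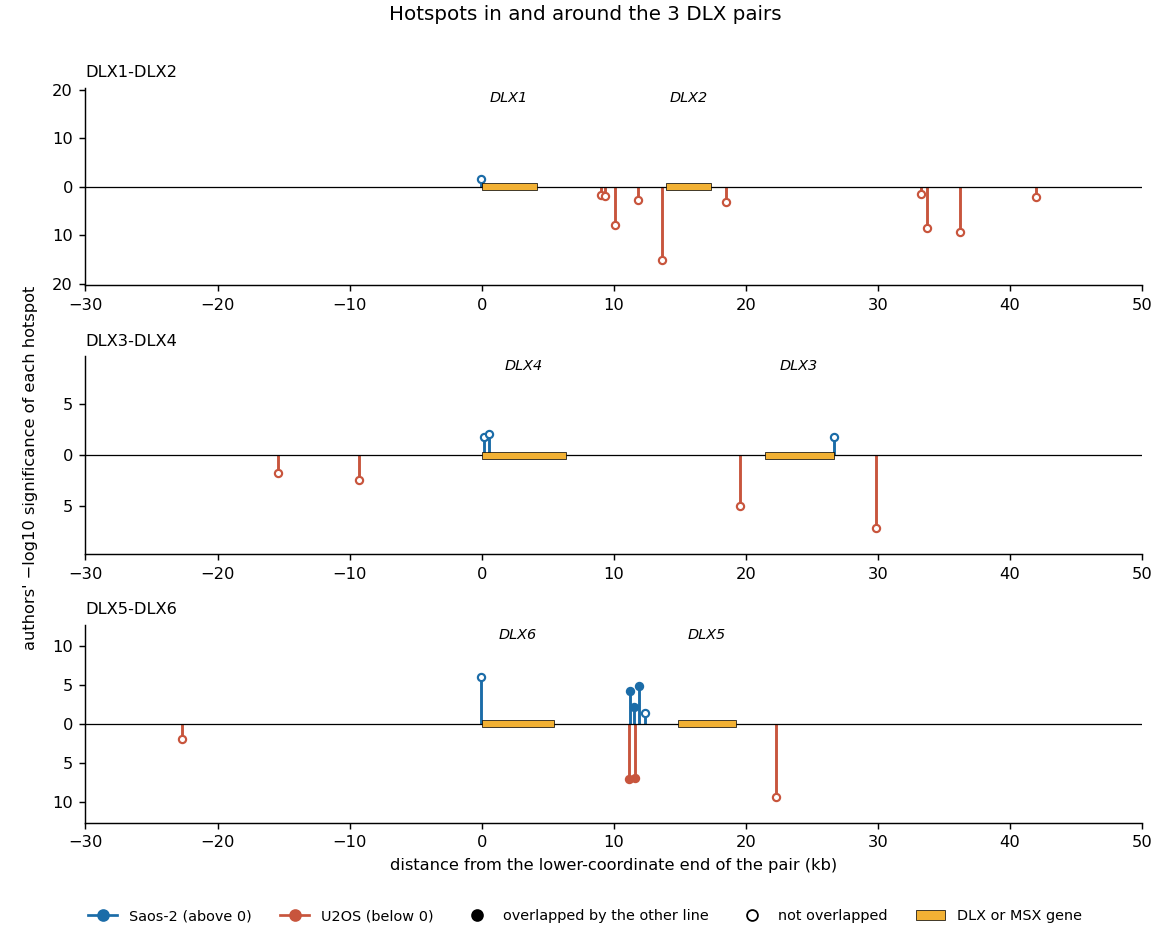
Hotspots from 30 kb below to 50 kb above the lower-coordinate end of each DLX pair (x axis, kb), with the authors' −log10 significance upwards for Saos-2 and downwards for U2OS on a scale of its own per panel. Filled points are overlapped by the other line, and yellow boxes are the genes; U2OS has 5 hotspots between DLX1 and DLX2 (2 of them in the top 50% of its list) where Saos-2 has none, while both lines have hotspots between DLX6 and DLX5.

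U2OS accessibility continued beyond DLX2. From 172094535 to 172127518, over 33.0 kb, 10 U2OS hotspots followed each other, none overlapped by Saos-2 and with no Saos-2 hotspot between them. Above DLX2 the run included hotspots at 172119058 to 172119345 (significance 8.42) and 172121538 to 172121905 (significance 9.25), in DNA with no annotated gene. Runs of this length were not rare in the U2OS list: 212 runs had at least 10 hotspots, and they held 4.93% of U2OS hotspots. The run was singled out after its values were seen. Its stretch held 6 U2OS hotspots with the U2OS list cut to the length of the Saos-2 list, and 4 in the top 50% of the list. The longest Saos-2 run in this locus had 2 hotspots.

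Over the whole DLX1-DLX2 locus, Saos-2 had 14 hotspots covering 3443 bp and U2OS had 24 covering 6866 bp. Of its 29 sites, where a site is a stretch of overlapping hotspots of either line, 9 were in both lines, 5 in Saos-2 alone and 15 in U2OS alone. Within 50 kb of the genes the numbers of hotspots were 3 and 10. The most significant Saos-2 hotspot (172253208 to 172253980, 773 bp, significance 15.59) lay 150 kb from DLX2 in the long non-coding RNA LOC107985960. It was shared with U2OS (172253205 to 172253549, significance 14.31). The strongest Saos-2 hotspot without a U2OS counterpart, at 172250037 to 172250288, had a significance of 5.14. No hotspot within 50 kb of DLX1 or DLX2 was overlapped by the other line, so the shared sites of this locus lay farther away. Over the whole lists 58.1% of Saos-2 and 46.9% of U2OS hotspots were overlapped. The 3 Saos-2 hotspots within 50 kb had significance 1.62, 1.85 and 3.23, and the 10 of U2OS are those of the run above. The share overlapped within 50 kb of other genes was not computed.

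DLX3-DLX4 was the locus with the most sites, 36, and lies in a gene-rich region that reaches COL1A1, the gene of the main collagen of bone. Saos-2 had 15 hotspots covering 4026 bp and U2OS had 31 covering 8638 bp. Sites of both lines numbered 10, those of Saos-2 alone 5 and those of U2OS alone 21. The strongest hotspots of both lines were at the overlapping ends of FAM117A and KAT7, 179 kb from DLX4: 49788937 to 49789455 in Saos-2 (significance 31.92) and 49788911 to 49789436 in U2OS (significance 38.0). The strongest U2OS hotspot without overlap (50151652 to 50151960, significance 12.57) lay 156 kb from DLX3, in the long non-coding RNA LOC124904025. It belonged to a run of 8 U2OS hotspots between 50140040 and 50173830. Nearer the pair, U2OS had a hotspot 3.05 kb above DLX3 (49998278 to 49998525, significance 7.16) and another 39.4 kb below DLX4 (49928865 to 49929191, significance 9.42), both without overlap. The strongest Saos-2 hotspot without overlap had a significance of 2.49.

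At DLX5-DLX6 the order of the lines was the reverse. Saos-2 had 13 hotspots covering 3931 bp and U2OS had 10 covering 3068 bp. The 15 sites fell into 5 of both lines, 6 of Saos-2 alone and 4 of U2OS alone. The ratio of U2OS to Saos-2 hotspots was 0.769, beside 1.19 over chromosome 7 and 1.23 over the whole lists. It remained below 1 in the 5 alternative settings (0.615 to 0.9). With hotspots less than 150 bp apart merged, Saos-2 had 10 and U2OS 9. The share of coding genes with a ratio below 1 was not computed. The strongest hotspot in both lines lay at the lower-coordinate end of SDHAF3, 92.5 kb from DLX5: 97117339 to 97118082 in Saos-2 (significance 26.35) and 97117346 to 97118194 in U2OS (significance 52.05). SDHAF3 is an assembly factor of succinate dehydrogenase. The strongest sites of a single line were a Saos-2 hotspot 55.5 kb below DLX6 (96949789 to 96950097, significance 9.0) and a U2OS hotspot 2.81 kb above DLX5 (97027643 to 97027978, significance 9.37). Each line thus had an accessible site of its own near the pair beside the shared sites between the genes.

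The MSX1 locus had the fewest sites, 12, with 5 hotspots covering 1441 bp in Saos-2 and 12 covering 3146 bp in U2OS. Each of the 5 Saos-2 hotspots was overlapped by U2OS (Wilson interval 56.6 to 100%), so no site belonged to Saos-2 alone. The share of the whole Saos-2 list, 58.1%, lay inside this interval, so these 5 hotspots do not set MSX1 apart from the list. At this locus 7 sites belonged to U2OS alone. Within 50 kb of the gene each line had the start hotspot and no other. The next U2OS hotspots lay 50.2 kb above (4914175 to 4914421, significance 7.68) and 58.3 kb below the gene (4801058 to 4801323, significance 3.97), both without overlap. The strongest U2OS hotspot without overlap was 96.5 kb away (4762873 to 4763201, significance 8.13). A shared hotspot 174 kb from MSX1, inside the kinase gene STK32B, was the strongest of the Saos-2 hotspots (significance 6.96 in Saos-2, 10.55 in U2OS).

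The MSX2 locus had the largest share of sites in both lines. Saos-2 had 14 hotspots covering 3261 bp and U2OS had 17 covering 4284 bp, and of the 21 sites 10 were in both lines, with 4 in Saos-2 alone and 7 in U2OS alone. Above the gene at 5.55 kb, a hotspot was shared (174736448 to 174736803 in Saos-2, 4.69; 174736440 to 174736695 in U2OS, 4.18). U2OS had a further hotspot 6.43 kb above the gene (174737322 to 174737614, significance 9.43), the strongest of the U2OS hotspots without overlap in this locus. The strongest Saos-2 hotspot without overlap (174531795 to 174532198, 404 bp, significance 7.82) lay 192 kb below MSX2. Shared hotspots stood beside it in the long non-coding RNA LOC105377739, among them the strongest U2OS hotspot of the locus (174532536 to 174532879, significance 13.52).

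**Figure D3:**
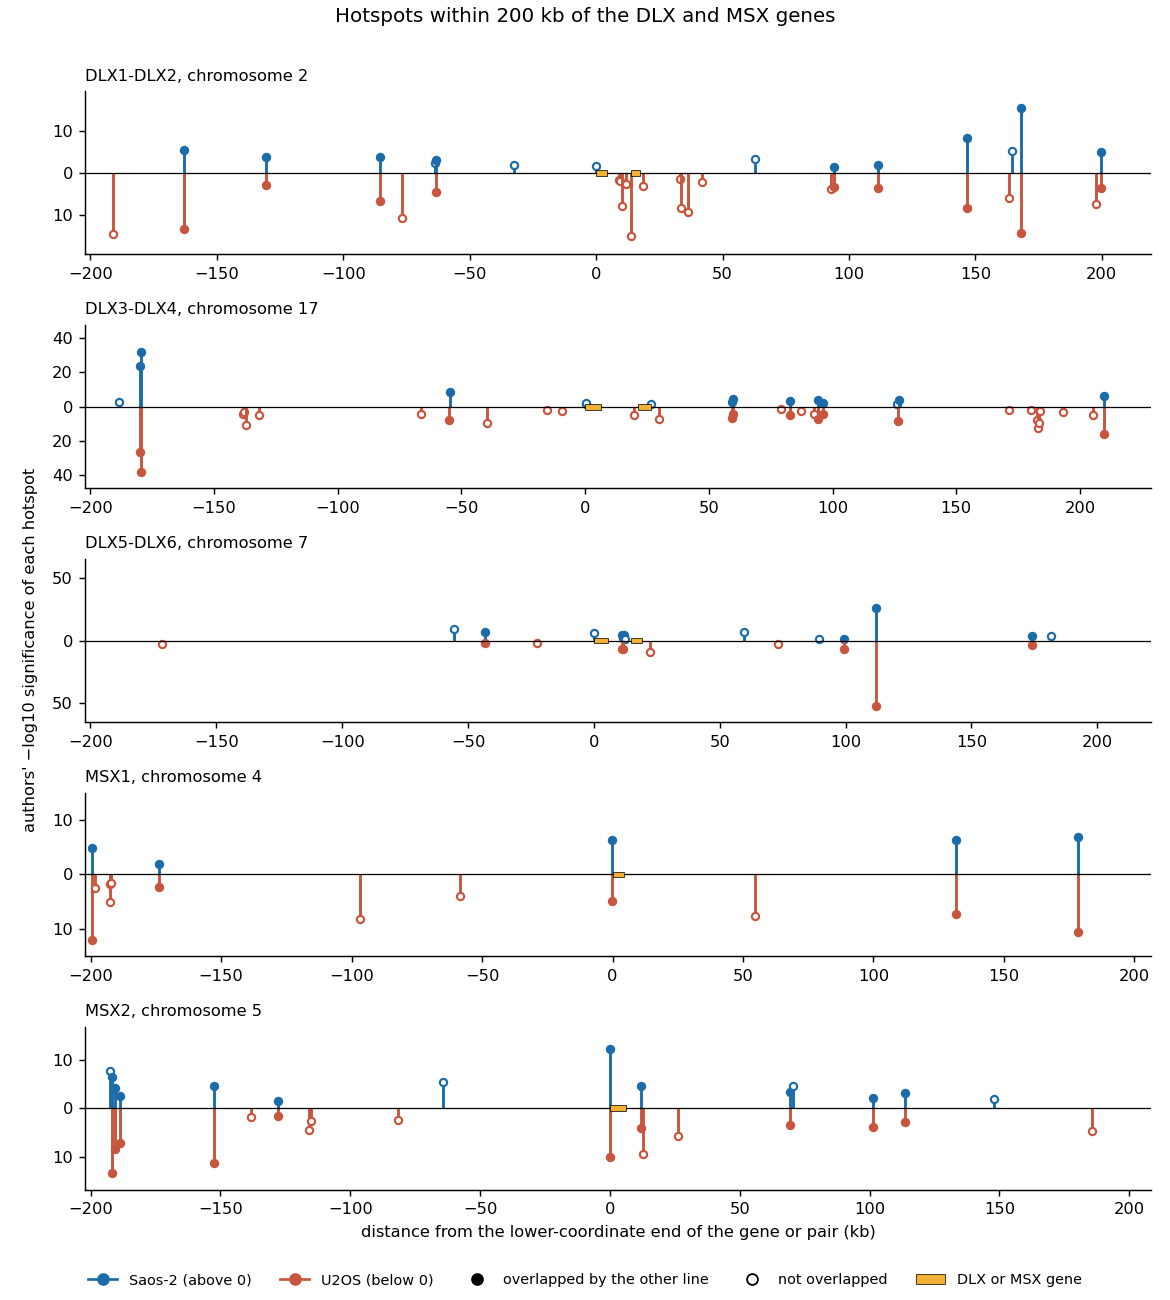
Every hotspot within 200 kb of the members, by distance from the lower-coordinate end of the gene or pair (x axis, kb) and by the authors' −log10 significance, upwards for Saos-2 and downwards for U2OS, on a scale of its own per panel. Filled points are overlapped by the other line. DLX2 carries open red points (U2OS) and DLX1 an open blue point (Saos-2), and the MSX1 and MSX2 starts carry filled points of both lines.

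Summed over the 5 loci, 113 sites were found, of which 39 (34.5%, 95% Wilson interval 26.4 to 43.7%) were in both lines, 20 (17.7%, 11.8 to 25.8%) in Saos-2 alone and 54 (47.8%, 38.8 to 56.9%) in U2OS alone. Over the genome the shares were 34.4%, 25.6% and 39.9%. Of the Saos-2 hotspots 67.2% (54.7 to 77.7%) overlapped a U2OS hotspot, beside 58.1% of the whole list. Of the U2OS hotspots 42.6% (33 to 52.6%) overlapped a Saos-2 hotspot, beside 46.9%. The intervals cover only counting error and treat adjacent hotspots as independent, which they are not. Each share of the whole lists was thus inside the interval of the loci. Hotspots in no annotated gene of any kind numbered 26 of 61 in Saos-2 and 48 of 94 in U2OS. The share over the whole lists was not computed, so these counts have no background.

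**Figure D4:**
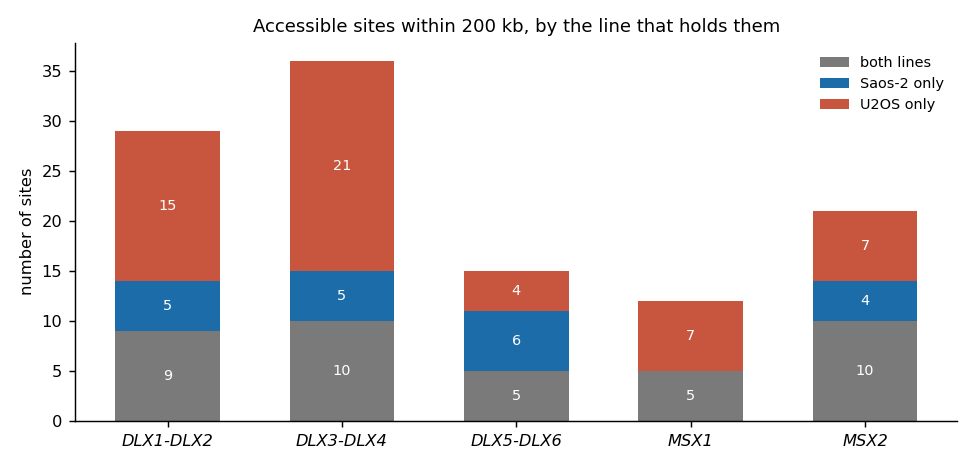
Bars give the number of sites (y axis) within 200 kb of each gene or pair, divided into sites of both lines (grey), of Saos-2 alone (blue) and of U2OS alone (red). U2OS-only sites are the largest class at DLX1-DLX2 (15), DLX3-DLX4 (21) and MSX1 (7), and Saos-2-only sites outnumber them at DLX5-DLX6 (6 against 4).

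The size of the difference in each locus was read against the same window around every coding gene. A coding gene had a median of 11 Saos-2 hotspots (quartiles 7 and 17) and 14 U2OS hotspots (quartiles 9 and 19). Ratios of U2OS to Saos-2 hotspots were 1.71 at DLX1-DLX2, 2.07 at DLX3-DLX4, 2.4 at MSX1 and 1.21 at MSX2. The ratios over their chromosomes were 1.33, 1.14, 1.21 and 1.42. DLX3-DLX4 and MSX1 passed a 2-fold difference with at least 10 hotspots over both lines, which 13.4% of coding genes passed towards U2OS and 2.47% towards Saos-2. Both shares are of all 19974 coding genes, including those with fewer than 10 hotspots, which could not pass. With lists of equal length both fell to 1.8, below that size. At DLX1-DLX2 the ratio was 3.33 within 50 kb, where DLX3-DLX4 had 1.4.

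**Figure D5:**
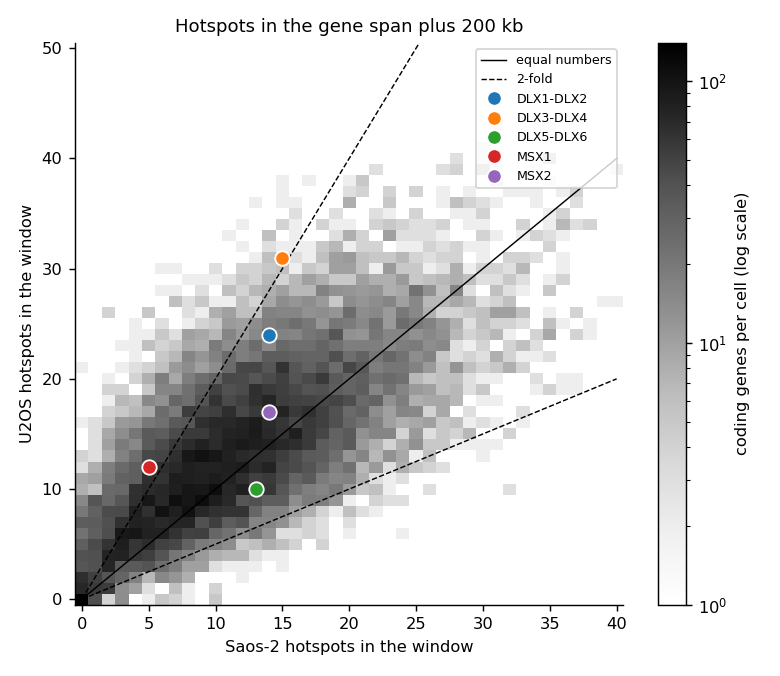
Grey cells count coding genes by the number of Saos-2 (x axis) and U2OS (y axis) hotspots in the gene span plus 200 kb, on a log scale of grey, and coloured points are the 5 loci. The solid line marks equal numbers and the dashed lines 2-fold differences; DLX3-DLX4 and MSX1 lie above the upper dashed line, DLX5-DLX6 lies below the solid line, and 36 genes lie outside the plotted range.

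Genes that act with the DLX and MSX factors were described from fixed lists. Of 18 BMP ligands, receptors, antagonists, SMADs and targets, 13 had a gene-end hotspot in Saos-2, 14 in U2OS and 11 in both, beside 47.9%, 53.4% and 42.9% of all coding genes. BMP4 had one in both lines and 14 Saos-2 and 28 U2OS hotspots in its window. BMP2, an osteogenic ligand, had none at its ends and 3 and 6 hotspots in its window. Over the list, the median window held 11.5 Saos-2 and 17 U2OS hotspots, and 2 of 18 genes passed the 2-fold size towards U2OS, beside 13.4% of all coding genes. Of 9 bone regulators and matrix genes, 4 had a gene-end hotspot in Saos-2, 4 in U2OS and 3 in both, beside the same 47.9%, 53.4% and 42.9%. Their median windows held 13 and 20 hotspots, and 2 of 9 passed the 2-fold size towards U2OS, beside 13.4%.

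RUNX2, the master regulator of osteoblasts, had gene-end hotspots in both lines and 23 Saos-2 and 20 U2OS hotspots in its window. SP7, which acts downstream of RUNX2, had none at its ends and 24 and 20 in its window. ALPL, the alkaline phosphatase of mineralising cells, had a gene-end hotspot in Saos-2 and none in U2OS, with 13 and 22 in its window. As a check of the labelled cell type, 2 of 4 osteoblast markers (RUNX2, SP7, ALPL and COL1A1) had a gene-end hotspot in each line, beside 47.9% of coding genes in Saos-2 and 53.4% in U2OS. In Saos-2 none of 3 epithelial, 1 of 3 blood and 1 of 3 neuronal markers did, and in U2OS 1 of 3 in each set. Gene-end hotspots of these short lists therefore did not set the osteoblast lineage apart.

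Among 26 other NK-like homeobox genes, 8 had a gene-end hotspot in Saos-2, 8 in U2OS, 5 in both and 15 in neither, beside 47.9%, 53.4%, 42.9% and 41.5% of coding genes. Their median windows held 8.5 Saos-2 and 10 U2OS hotspots, and 4 of 26 passed the 2-fold size towards U2OS, beside 13.4%. The windows most like each locus, by the summed difference in the numbers of hotspots over the 2 libraries, included that of NKX3-2 for DLX5-DLX6 (11 and 9, difference 3). For MSX1, 6 genes tied at a difference of 4, of which BARX1, DBX1 and DBX2 come first in alphabetical order. EMX1, LBX2 and NKX2-5 were nearest to MSX2 (difference 7 each). TLX2, with 20 Saos-2 and 22 U2OS hotspots, was nearest to DLX1-DLX2 (difference 8) and to DLX3-DLX4 (difference 14). This likeness is in numbers of hotspots from 2 libraries and describes nothing else.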

How the data were processed

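Per the submitters' processing notes, reads were handled with Trimmomatic 0.38 and BWA 0.7.15 on hg38. The hotspot caller and the read depth are not given in the sources used here. The authors deposited 1 list of hotspots per library with a −log10 significance per hotspot, capped at 100 and at least 1.30, which is the −log10 of the false discovery rate of 0.05 in the file name. The lists were not pooled or normalised here.

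Gene spans, without exons, came from RefSeq (GRCh38.p14, the primary assembly of hg38), and starts and promoters from its promoter table. No start or promoter of DLX3, DLX4 or DLX5 was used, so gene ends served for all 8 members. Overlap meant at least 1 bp, covered bases were clipped to the window, and shares have 95% Wilson intervals. Counting was checked on simulated lists. Python 3.11.15, pandas 2.3.3 and scipy 1.17.1 were used. Alternatives were windows of 50 and 100 kb, equal lists, the top 50%, merging under 150 bp, overlap of 50% of both hotspots, and gene ends within 500 bp or 2.5 kb. The genes and gene lists were chosen with earlier results of these data known, and 1 gene of those lists is not reported here. Hotspots were named where they were the most significant, the most significant without overlap or the widest of a line in a locus; others near the genes were named after their values were seen. With 1 library per line, no test between lines was made.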

Additional observations from a re-analysis of the deposited data

How the results depend on the processing

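No paired analysis was possible because each line had 1 library, which also means that no replicate could be omitted. Of 213 values recomputed, 125 were labelled the same and 78 moved, 7 lost a 2-fold call and 3 gained one. A reversal could be labelled only at DLX3-DLX4 and MSX1, the loci with a 2-fold call, and none was seen there. With windows of 50 kb the loci held 18 Saos-2 and 27 U2OS hotspots covering 4537 and 6883 bp, with 7 sites of both lines, 9 of Saos-2 alone and 19 of U2OS alone, and shares overlapped of 50% and 29.6%. With windows of 100 kb they held 37 and 51 hotspots covering 8609 and 13222 bp, with 20 sites of both lines and 30 of U2OS alone. These windows hold less DNA, which lowers the counts by construction. The top 50% of each list left 29 and 49 hotspots, 17 sites of both lines, 11 of Saos-2 alone and 31 of U2OS alone, and 3 members with a gene-end hotspot in Saos-2. Requiring overlap of 50% of both hotspots gave 52.5% of Saos-2 hotspots overlapped. Loci at least 2-fold higher in U2OS, with at least 10 hotspots over both lines, numbered 2 with the deposited lists. The number was 2 in the top 50%, 2 with merging, 1 within 100 kb, 1 within 50 kb and 0 with equal lists. The cause was not tested. The 1 locus within 100 kb and within 50 kb was DLX1-DLX2, at 2 and 3.33. MSX1 within 100 kb (4 against 1) and MSX2 within 50 kb (4 against 2) also reached 2-fold, with too few hotspots to count. In the top 50% the 2 loci were DLX1-DLX2 (2.4) and DLX3-DLX4 (3.4). The share of coding genes was computed for the deposited lists and 200 kb only. Between DLX1 and DLX2, U2OS had 3 hotspots with equal lists and 2 in the top 50%, and Saos-2 none in either; these settings and those for the run at DLX1-DLX2 were chosen after seeing the data. Read depth is unknown, and among the gene-end hotspots those at DLX1, DLX3 and DLX4 lie nearest the calling threshold.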

Other observations

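The other coding genes that reach into the 5 windows were read beside the members. Of 16 such genes, 7 had a gene-end hotspot in Saos-2, 10 in U2OS and 6 in both lines. Of all coding genes 47.9%, 53.4% and 42.9% did. Most of the 16 lay at DLX3-DLX4, and none at MSX2. HAT1 and KAT7, which encode histone acetyltransferases, METAP1D, an aminopeptidase of mitochondria, FAM117A, PDK2, a kinase of pyruvate dehydrogenase, and SDHAF3 were accessible at an end in both lines. SLC25A12, ITGA3, PPP1R9B and COL1A1 had a gene-end hotspot in U2OS and none in Saos-2, and LOC124900165 had one in Saos-2 and none in U2OS. Those of COL1A1 and LOC124900165 lay at the gene end outside the window. TAC4, SAMD14, SGCA, CYTL1 and STK32B had none in either line. Among these neighbours 4 of 16 were accessible at an end in U2OS alone and 1 in Saos-2 alone, beside 10.5% and 5.09% of all coding genes. Among the members the numbers were 1 and 4 of 8 with the deposited lists, and 1 (DLX2) and 1 (DLX6) in the top 50% of each list. Neighbours and all coding genes were counted with the deposited lists only, so the top 50% has no background. The members' 4 include the hotspots near the threshold at DLX1, DLX3 and DLX4, and the difference between members and neighbours was not tested.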
